A study of Rattus norvegicus with 16 samples.

Results

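The 6 genes described here belong to the integrated stress response and the unfolded protein response, and were followed in the hearts of rats given doxorubicin (DOX) or saline. They were chosen by Ensembl identifier, and all 6 were found among the 32545 genes of the deposited tables: Atf4 (ENSRNOG00000017801), Ddit3 (ENSRNOG00000006789), Trib3 (ENSRNOG00000007319), Asns (ENSRNOG00000007546), Hspa5 (ENSRNOG00000018294) and Xbp1 (ENSRNOG00000010298). Heart RNA was sequenced from 16 male Wistar rats, matched for age and weight when they entered the study, each library coming from 1 heart. The paper reports that rats on the high DOX dose later lost weight. The saline control group held 10 rats with 5 weekly intravenous saline injections by the labels, whereas the methods describe a longer series of saline injections. The DOX high group held 6 rats with 5 weekly intravenous injections of 3 mg per kg DOX, an anthracycline cancer drug known for its toxicity to the heart, which adds up to 15 mg per kg. The RNA came from a piece of snap-frozen heart tissue. The tissue was not checked against cell type markers, since the files name genes by identifier only. In such bulk tissue, fewer cells of a type and less RNA per cell cannot be told apart.

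Cells that lack amino acids, carry unfolded protein in the endoplasmic reticulum (ER) or suffer mitochondrial damage phosphorylate the translation factor eIF2alpha. General protein synthesis then slows, while translation of the transcription factor ATF4 rises, and ATF4 turns on genes of amino acid supply and, when stress persists, the transcription factor CHOP, which Ddit3 encodes. This is the integrated stress response. Trib3, a pseudokinase, and Asns, which makes asparagine, are among its usual targets. The unfolded protein response is the answer to unfolded protein in the ER, and it shares only a part with the integrated stress response. It raises Hspa5, the ER chaperone BiP, and acts through the transcription factor XBP1, whose messenger is spliced by the ER sensor IRE1 before it encodes the active protein. Gene counts therefore read the amount of these messengers, not the translation of Atf4 nor the splicing of Xbp1. In heart muscle both responses are known from ischaemia, pressure overload and mitochondrial disease.

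The start regions of 3 of the 6 genes, Hspa5, Xbp1 and Trib3, held a DNA element through which these responses are known to act. RefSeq windows from 250 bases before to 50 bases after the gene start were searched on both strands for 5 motifs, in the build GRCr8 (the counts use Rnor_6.0, and no coordinate was converted), and all 6 genes matched by symbol. The ER stress response element, CCAAT and CCACG with 9 bases between them, known to be bound by ATF6 and XBP1 together with NF-Y, lay in 22 of 33365 distinct windows (0.0659%), 2 of them those of Hspa5 and Xbp1. It began 43 bases before the Hspa5 start and 65 bases before the Xbp1 start. The amino acid response element TGATGNAAN, known to be bound by ATF4 with a C/EBP partner, lay in 3.97% of the windows and, of these genes, only in that of Trib3, where it was on the opposite strand 22 bases before the start. The 3 windows with an element are printed here 5′ to 3′ on the gene's strand, with the element in capitals. They are chr3:38452766-38453065 (plus strand) for Hspa5, chr14:84604373-84604672 (plus strand) for Xbp1 and chr3:161275484-161275783 (minus strand) for Trib3.
Hspa5: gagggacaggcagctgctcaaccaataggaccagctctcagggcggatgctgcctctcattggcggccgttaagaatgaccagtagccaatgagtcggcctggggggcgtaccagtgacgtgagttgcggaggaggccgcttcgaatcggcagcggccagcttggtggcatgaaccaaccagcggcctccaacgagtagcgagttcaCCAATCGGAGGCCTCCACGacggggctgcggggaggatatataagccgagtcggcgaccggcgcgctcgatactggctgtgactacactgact
Xbp1: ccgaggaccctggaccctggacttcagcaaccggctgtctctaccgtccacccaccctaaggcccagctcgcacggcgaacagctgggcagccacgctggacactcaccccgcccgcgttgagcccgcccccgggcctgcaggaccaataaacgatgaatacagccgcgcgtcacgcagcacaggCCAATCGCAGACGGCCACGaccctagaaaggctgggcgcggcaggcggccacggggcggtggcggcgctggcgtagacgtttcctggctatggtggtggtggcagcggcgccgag
Trib3: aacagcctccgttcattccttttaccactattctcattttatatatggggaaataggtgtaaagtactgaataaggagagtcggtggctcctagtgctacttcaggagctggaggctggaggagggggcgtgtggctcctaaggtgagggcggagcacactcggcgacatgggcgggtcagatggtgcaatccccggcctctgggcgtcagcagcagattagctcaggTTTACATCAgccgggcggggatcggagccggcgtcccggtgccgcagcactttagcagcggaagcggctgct
None of the 6 windows held TGACGTGG, the unfolded protein response element (0.596% of all windows), or TGACGTCA, the cAMP response element (1.83%). The CCAAT box alone, which is also the first part of the ER stress response element, lay in 37.5% of windows and in those of Hspa5, Xbp1 and Ddit3. The windows of Atf4 and Asns matched none of the 5 motifs. These are matches of letters only, and no match says only that the letters are not in that window.

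Between 13784896 and 18025615 fragments were counted per library. Counts were brought to a common library size as CPM with TMM factors, which correct the library totals for libraries in which a few abundant genes take a larger or smaller part of the counts. These factors lay between 0.885 and 1.36. DOX high rat 32 stood apart with the factor of 1.36 and 18.7% of its counts on its 10 most abundant genes (27.8% to 31.1% in the other DOX high rats), and saline rats 6 and 36 had the next highest factors (1.20 and 1.14). Saline rat 37 and DOX high rat 32 were left out in some fits because an earlier analysis of these files had found them to stand apart, and results that rest on them are given with and without them. The animal numbers form a pair of blocks: rats 5 to 10 are all saline, and rats 30 to 39 are 4 saline and 6 DOX high rats. The library names follow the groups too, with every saline library numbered before every DOX high library, also within rats 30 to 39. What that numbering stands for is not stated, and any effect of it cannot be told apart from that of DOX.

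Of the 6 genes, Atf4 was called higher in DOX high hearts over all 16 rats, and the other 5 did not pass the test. The Atf4 call was lost within rats 30 to 39 (edgeR adjusted p = 0.401) and with the number block in the fit (edgeR adjusted p = 0.313), where the calls over all genes fell from 851 to 0 and 2. This was 1 call among 6 genes, where 6.25% of the 13607 genes tested were called in either direction and 4.01% were called higher in DOX high hearts (quasi-likelihood F test of edgeR, p adjusted by Benjamini-Hochberg over all genes tested, threshold 0.05). Their median log2 fold change was 0.12, against -0.0047 over all genes tested. The calls over all genes were 546 higher and 305 lower, against 816 and 723 with DESeq2 and 430 and 148 on library totals alone. All 6 genes passed the filter on low counts. DOX high hearts had the larger fitted value in Atf4, Ddit3, Trib3, Asns and Xbp1 and the smaller one in Hspa5.

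**Figure D1:**
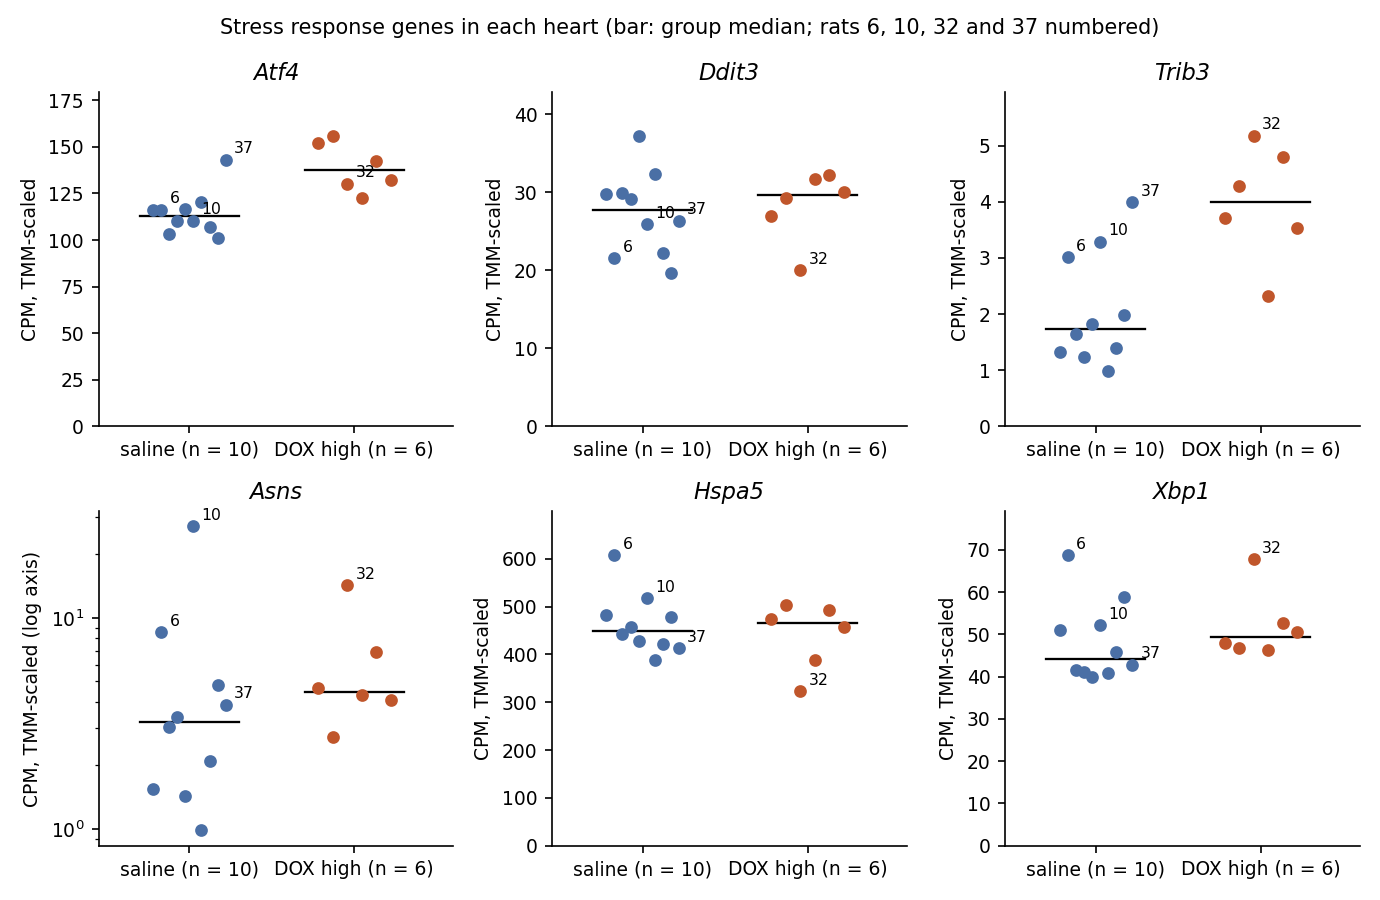
CPM (TMM-scaled) of each gene in each heart, saline on the left (n = 10) and DOX high on the right (n = 6), 1 point per rat, bars at the group medians, rats 6, 10, 32 and 37 numbered; the Asns axis is logarithmic. Atf4 of all 6 DOX high hearts lies above every saline heart except rat 37 (143 CPM), and Asns of saline rat 10 stands at 27.1 CPM, above every DOX high heart.

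Atf4, the transcription factor at the centre of the response, ranged from 101 CPM through a median of 113 CPM to 143 CPM in saline hearts. In DOX high hearts its lowest, median and highest values were 122, 137 and 156 CPM. All 6 DOX high hearts lay above the saline median, and 1 saline heart, rat 37, lay inside the DOX high range, while the next highest saline heart, rat 34, had 120.2 CPM. The means were 114 ± 11.8 CPM (SD, n = 10) and 139 ± 13.2 CPM (SD, n = 6). The log2 fold change was 0.28 (standard error 0.078, 95% interval 0.12 to 0.45), or 1.22-fold (1.09 to 1.36), with an adjusted p of 0.0410 in the edgeR test. Atf4 was the gene with rank 664 by p among the 13607 tested.

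The Atf4 call stood close to the threshold. It held in 3 of the 16 edgeR fits that left out 1 rat, those without saline rat 9 (adjusted p = 0.0480, 6.36% of all genes called), saline rat 37 (0.00468, 13.0%) and DOX high rat 33 (0.0447, 3.16%). It was lost in the other 13, with an edgeR adjusted p of up to 0.0853. The log2 fold change itself stayed between 0.25 and 0.33 in these fits. Without saline rat 37 and DOX high rat 32 together it was 0.35, with an edgeR adjusted p of 0.00343 and 13.0% of all genes called.

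**Figure D2:**
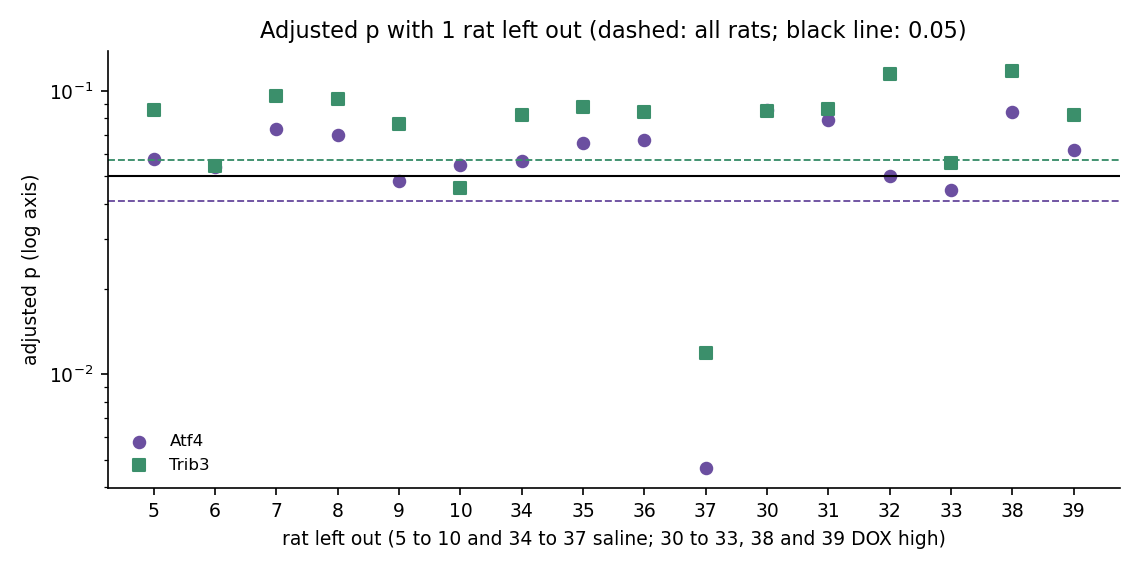
Benjamini-Hochberg adjusted p (logarithmic axis) of Atf4 and Trib3 from edgeR fits that each left out the rat on the horizontal axis, with the value from all rats as a dashed line and 0.05 as a black line. Without saline rat 37 both genes fall far below the line (0.00468 and 0.0119), and most other fits lie between 0.0447 and 0.118.

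Scaling mattered for Atf4 as well. On CPM scaled by library totals alone, an alternative added after seeing the data, its log2 fold change was 0.35 with an adjusted p of 0.0797 in the edgeR test, where 4.25% of all genes were called. The same 6 DOX high hearts were then above the saline median, but saline rat 6 rose from 116 to 139 CPM and DOX high rat 32 from 130.2 to 173 CPM, the hearts with high TMM factors.

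Trib3, the pseudokinase that ATF4 and CHOP are known to induce, was a weakly expressed messenger with 13 to 123 counts per library, so that counting error alone gave a coefficient of variation of up to 27.7%. Saline hearts held 0.984 CPM at the lowest, 1.73 CPM at the median and 3.999 CPM at the highest. DOX high hearts held 2.32, 3.996 and 5.18 CPM. All 6 DOX high hearts lay above the saline median, and 3 saline hearts, rats 6, 10 and 37, lay within the DOX high range with 3.01, 3.29 and 3.999 CPM. Its fitted difference was the largest of the 6 genes, a log2 fold change of 0.93 (standard error 0.28), or 1.91-fold with a 95% interval of 1.26 to 2.89, but it missed the threshold with an edgeR adjusted p of 0.0569. It passed in 4 alternatives and missed in 24. Of the 16 edgeR fits that left out 1 rat, 2 called it. They were those without saline rat 37 (log2 fold change 1.09, edgeR adjusted p = 0.0119, 13.0% of all genes called) and without saline rat 10 (1.03, edgeR adjusted p = 0.0456, 5.67%). These rats had the highest Trib3 of the saline hearts, so leaving either out lowers the saline mean. It also passed without rats 37 and 32 together (1.00, edgeR adjusted p = 0.0237, 13.0%) and with DESeq2 (0.92, DESeq2 adjusted p = 0.0277, 9.55%). The 95% interval carries no adjustment for the number of genes tested.

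Ddit3, the stress-induced transcription factor CHOP, was close to level between the groups. Its saline values ran from 19.6 CPM through 27.8 CPM to 37.3 CPM, and its DOX high values from 20.003 CPM through 29.7 CPM to 32.2 CPM, so the saline range enclosed every DOX high heart. The log2 fold change was 0.048 (standard error 0.13, edgeR adjusted p = 0.859), and the 95% interval of the fold ran from 0.849 to 1.26. In the RefSeq genes of GRCr8 Ddit3 overlaps Mars1 and LOC134479709, and the fragments were counted without regard to strand. The overlap was not checked in the Ensembl annotation used for the counts. Whether it added fragments to Ddit3 or took them away was not tested.

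Asns, which makes asparagine from aspartate and glutamine, varied more between hearts than any other of these genes. Its saline values spread 27.6-fold, from 0.984 CPM in rat 34 through a median of 3.21 CPM to 27.1 CPM in rat 10, with rat 6 second at 8.56 CPM. DOX high hearts ran from 2.74 CPM through 4.47 CPM to 14.4 CPM in rat 32, and 5 of 6 lay above the saline median. The coefficient of variation was 138% in saline hearts, against 10.3% for Atf4. Its log2 fold change was 0.12 (standard error 0.62, edgeR adjusted p = 0.926), with a 95% interval of the fold from 0.437 to 2.72, wide enough to hold a 2-fold change in either direction. The value turned on single hearts: it was 0.89 without saline rat 10 (edgeR adjusted p = 0.228) and -0.33 without DOX high rat 32 (edgeR adjusted p = 0.809).

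Hspa5, the ER chaperone BiP, was the most abundant of the 6 messengers and did not differ detectably. It ran from 389 CPM through 449.97 CPM to 608 CPM in saline hearts and from 323 CPM through 465 CPM to 503 CPM in DOX high hearts, and 8 of 10 saline hearts lay within the DOX high range. The log2 fold change was -0.077 (standard error 0.11, edgeR adjusted p = 0.717), and the 95% interval of the fold ran from 0.805 to 1.12. The lowest DOX high value was that of rat 32, and it rests on that library's scaling: by library totals alone rat 32 held 429.8 CPM, inside the range of the other DOX high hearts (369.8 to 492 CPM). The direction was not settled either, as the log2 fold change within rats 30 to 39 was 0.042.

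Xbp1, the transcription factor of the IRE1 branch, was likewise not called. Saline hearts held 40.02 CPM at the lowest, 44.3 CPM at the median and 68.8 CPM at the highest, and DOX high hearts 46.3, 49.3 and 67.8 CPM. All 6 DOX high hearts were above the saline median, but by less than the spread between saline hearts, and by library totals alone 4 of 6 were. The log2 fold change was 0.11 (standard error 0.12, edgeR adjusted p = 0.640), with a 95% interval of the fold from 0.898 to 1.29. Rat 32 carried much of it, since the log2 fold change without that heart was 0.015 (edgeR adjusted p = 0.956).

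**Figure D3:**
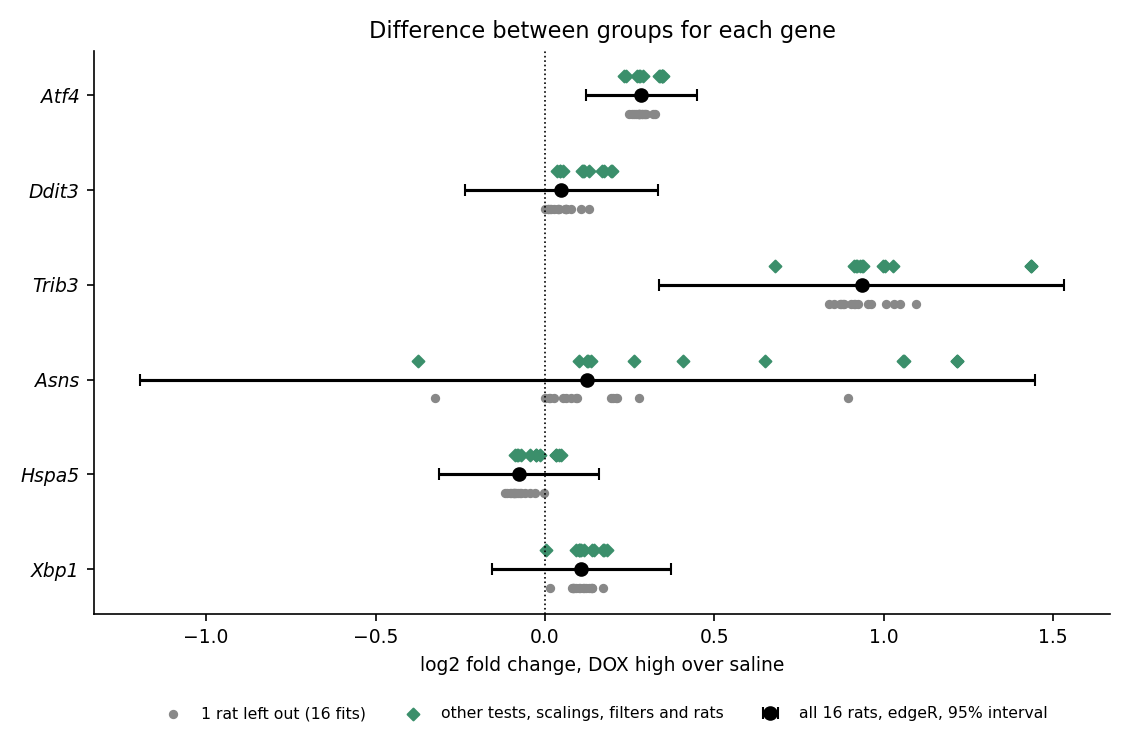
Log2 fold change of each gene, DOX high over saline, from the edgeR fit of all 16 rats (black point, bar the 95% interval), from 16 fits without 1 rat (grey) and from the other tests, scalings, filters and rat selections (green). Atf4 and Trib3 stay above 0 in every fit drawn, whereas Asns spans from -0.38 to 1.22.

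The comparison was repeated within rats 30 to 39, where 4 saline and 6 DOX high hearts share a number block. No gene was called there by edgeR (0% of 13730 genes, with 13.8% at an unadjusted p under 0.05), and 1 of the 6 genes had an unadjusted p under 0.05. Atf4 had a log2 fold change of 0.23 (standard error 0.12, edgeR adjusted p = 0.401) and Trib3 one of 0.91 (standard error 0.37, edgeR adjusted p = 0.322), close to their values over all rats. Asns moved to 1.06 (standard error 0.53, edgeR adjusted p = 0.406), and the saline hearts left out were rats 5 to 10, which include the hearts with the highest Asns. With the block as a covariate, edgeR called none of the 6 genes and 0.0147% of all genes, with log2 fold changes of 0.24 for Atf4 and 0.92 for Trib3 (edgeR adjusted p = 0.313 and 0.311). Within rats 30 to 39 but without saline rat 37, a step added after seeing the data, Trib3 stood at 1.43 (edgeR adjusted p = 0.0527) and Atf4 at 0.34 (edgeR adjusted p = 0.127), without a call, where 2.20% of all genes were called.

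Among the saline hearts alone, rats 34 to 37 were compared with rats 5 to 10 to see how far the genes move between number blocks without DOX. None of the 6 genes was called by edgeR, none had an unadjusted p under 0.05, and 0% of the 13413 genes tested were called (4.41% at an unadjusted p under 0.05, and 0.118% called by DESeq2). Atf4 averaged 118 CPM in rats 34 to 37 and 112 CPM in rats 5 to 10, a log2 difference of 0.077 (standard error 0.10, edgeR adjusted p = 0.923). Asns averaged 2.94 and 7.52 CPM, a log2 difference of -1.34 (standard error 0.86, edgeR adjusted p = 0.918). Hspa5 was at 425 CPM and 489 CPM, a log2 difference of -0.20 (standard error 0.12, edgeR adjusted p = 0.918).

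Levels of different genes were compared as TPM, the deposited transcript abundances that divide by gene length. In saline hearts the order was Hspa5 with 247 ± 77.6 TPM, Atf4 with 109 ± 24.3 TPM, Xbp1 with 59.8 ± 23.6 TPM, Ddit3 with 38.9 ± 4.55 TPM, Asns with 3.56 ± 4.67 TPM and Trib3 with 1.502 ± 0.912 TPM (SD, n = 10). The ranges of Atf4 (83.7 to 153 TPM) and Xbp1 overlapped, as did those of Xbp1 and Ddit3, with 41.6 to 115 TPM and 32.1 to 46.7 TPM, as did those of Asns (0.538 to 15.6 TPM) and Trib3 (0.619 to 3.07 TPM). Hspa5 and Atf4 did not overlap, at 185 TPM or more against 153 TPM or less. In DOX high hearts the order of the means was the same, but the median of Asns (2.53 TPM) was below that of Trib3 (2.72 TPM). By mean TPM, Hspa5 and Atf4 were above 97.3% and 95.1% of the genes tested, and Trib3 above 19.2%.

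A ratio of 2 genes within a heart does not depend on how libraries are scaled. Atf4 to Hspa5, the transcription factor over the chaperone, ran from 0.347 through 0.437 to 0.630 in saline hearts and from 0.525 through 0.568 to 0.733 in DOX high hearts (lowest, median, highest ratio of TPM values). All 6 DOX high hearts lay above the saline median, and saline rats 34 and 37 fell within the DOX high range with 0.561 and 0.630. Trib3 to Atf4 ran from 0.00597 through 0.0115 to 0.0217 in saline hearts and from 0.0138 through 0.0198 to 0.0290 in DOX high hearts, so in DOX high hearts Trib3 stood higher relative to Atf4 too, with 4 saline hearts inside the DOX high range. Ddit3 to Atf4 had medians of 0.376 in saline and 0.315 in DOX high hearts, and 1 of 6 DOX high hearts was above the saline median. Xbp1 to Hspa5 had medians of 0.239 and 0.250, and DOX high rat 32 stood at 0.482, above every other heart. These ratios are given as a description and were not tested.

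**Figure D4:**
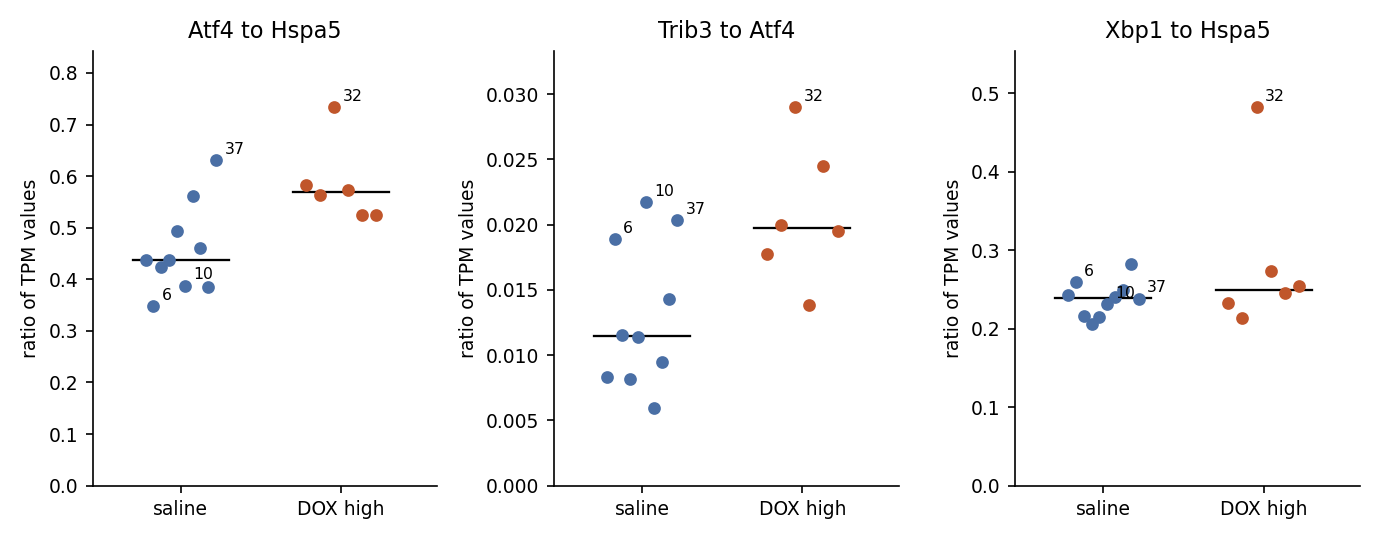
Ratios of TPM values within each heart for Atf4 to Hspa5, Trib3 to Atf4 and Xbp1 to Hspa5, 1 point per rat (10 saline, 6 DOX high), bars at the medians, rats 6, 10, 32 and 37 numbered. Atf4 to Hspa5 is 0.525 or more in every DOX high heart, and Xbp1 to Hspa5 is 0.482 in rat 32 against 0.283 or less in every other heart.

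How the genes vary together was read within the 10 saline hearts, over all 15 pairs of log2 CPM values. Hspa5 and Xbp1, the genes whose start regions hold the ER stress response element printed above, had the highest correlation (Pearson r = 0.87, two-sided permutation test with 100000 resamples, p = 0.00171, adjusted over the 15 pairs p = 0.0256; Spearman rho = 0.73, permutation p = 0.0204, adjusted p = 0.0611). This r was higher than that of Hspa5 with 99.3% of all genes tested. Whether the shared element has a part in this was not tested. Without rats 6 and 34, the saline hearts farthest from the Hspa5 median, r was 0.70 (exact permutation test, p = 0.0562). The call thus rested in part on those hearts. Leaving out rat 5, 6, 10 or 34 alone also lost it (exact permutation test, adjusted p = 0.0636, 0.133, 0.0523 and 0.0542). Without rat 6 r was 0.72, but without rat 5, 10 or 34 it stayed at 0.87, 0.87 and 0.86. Leaving out any other saline rat kept the call. Rats 6 and 36, the saline hearts with the highest Xbp1, also had the highest TMM factors of the group, and the part of this in the result was not tested. On log2(TPM + 1) r was 0.98, but TPM carries no correction for a few abundant genes, and all 15 pairs had a higher r on it: Atf4 and Hspa5 went from -0.25 to 0.74, and Atf4 and Xbp1 from -0.21 to 0.75.

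Trib3 and Asns, both known targets of ATF4, had the next highest r of 0.73 (permutation test, p = 0.0132, adjusted over the 15 pairs p = 0.0662; Spearman rho = 0.73, permutation p = 0.0203, adjusted p = 0.0611), and 0.80 without rats 37 and 10 (exact permutation test, p = 0.0169). With 1 saline rat left out, r of Trib3 and Asns was 0.67 to 0.87 (exact permutation test, adjusted p from 0.0195 to 0.221). It was 0.75 on log2(TPM + 1) (permutation test, adjusted p = 0.0467). On log2 CPM neither passed the threshold with Atf4 itself: r was 0.41 for Atf4 and Trib3 (permutation p = 0.254, adjusted p = 0.381; rho = 0.13, permutation p = 0.736, adjusted p = 0.736) and -0.13 for Atf4 and Asns (permutation p = 0.690, adjusted p = 0.690; rho = -0.27, permutation p = 0.449, adjusted p = 0.481). For Atf4 and Trib3, r without rats 37 and 36 was -0.096, whereas on log2(TPM + 1) over all 10 hearts it was 0.83 and passed (permutation test, adjusted p = 0.0312), so this pair depends on the scaling. Ddit3 ran opposite to Xbp1, with r = -0.75 (permutation p = 0.0115, adjusted p = 0.0662; rho = -0.87, permutation p = 0.00222, adjusted p = 0.0333), but r was -0.67 without rats 36 and 9 (exact permutation p = 0.0594) and -0.036 on log2(TPM + 1).

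The pattern of Hspa5 and Xbp1 looked otherwise in the 6 DOX high hearts, where r was -0.71 (exact permutation test, p = 0.125, adjusted p = 0.295; rho = -0.26). It turned on rat 32, in which Xbp1 was the highest of the DOX high hearts and Hspa5 the lowest, and r among the other 5 was 0.43. By library totals alone Hspa5 of rat 32 was not the lowest, with 429.8 CPM against 369.8 CPM in rat 33. The part of that library's scaling in this r was not tested. Whether the correlation differs between the groups was not tested.

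**Figure D5:**
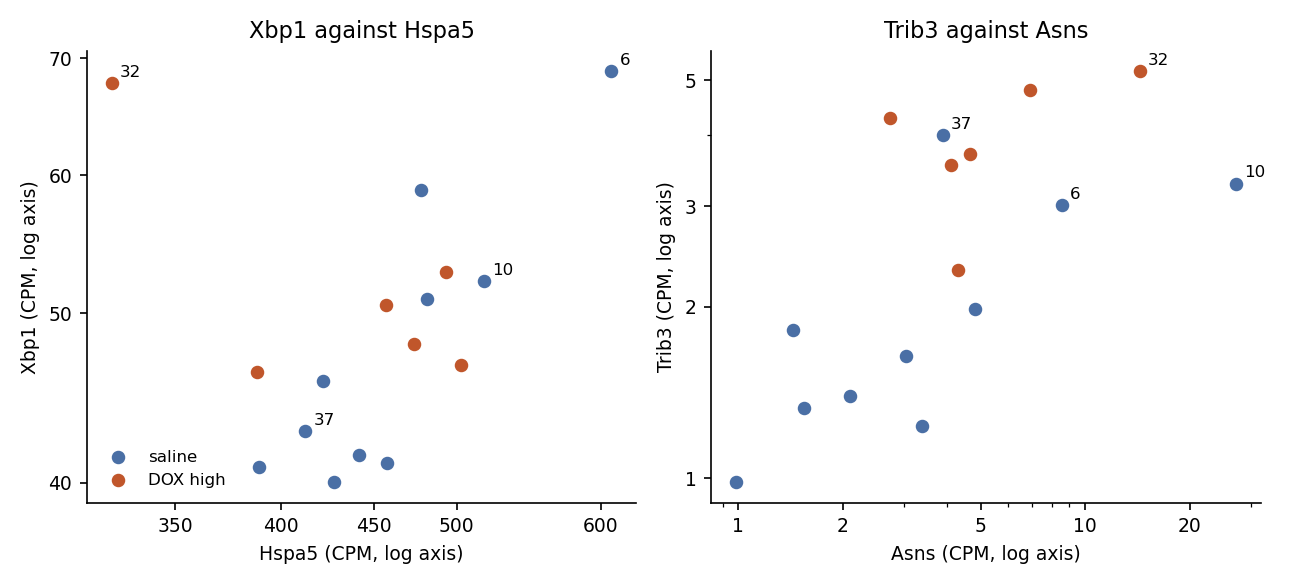
Xbp1 against Hspa5 and Trib3 against Asns, CPM on logarithmic axes, 1 point per heart, saline in blue (n = 10) and DOX high in orange (n = 6), rats 6, 10, 32 and 37 numbered. In saline hearts Xbp1 rises with Hspa5 (r = 0.87). With TMM scaling, DOX high rat 32 lies away from that line with Hspa5 at 323 CPM and Xbp1 at 67.8 CPM.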

How the data were processed

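RNA from 16 hearts was sequenced by the authors as paired reads from polyA-enriched, strand-specific libraries. Per the paper's methods and the labels, the authors aligned reads to Rnor_6.0 with Hisat2 and counted fragments on Ensembl exons with featureCounts (Subread 1.5.0, default settings, which ignore strand). The deposited counts hold whole numbers of fragments. The deposited TPM values were scaled by the authors for gene length and depth.

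The comparison of both groups used edgeR 4.0.16 (R 4.3.3; filterByExpr, TMM, glmQLFit and glmQLFTest, adjusted p under 0.05) over 13607 genes. A standard error is the log2 fold change over the root of F, and 95% intervals use the fit's degrees of freedom. Log2 CPM has a prior count of 2. Correlations were tested by permuting hearts in Python 3.11.15. Alternatives were DESeq2 1.42.0, limma 3.58.1, other scalings, filters and rats. The scripts were tested on simulated data. Every pair of libraries within a group (60 pairs) differed beyond sampling noise, with a chi-square of at least 13.9 per degree of freedom. The 6 genes, whose symbols were given with their identifiers, and all lists were chosen with earlier results of these data known. The text names these 6 genes by rule. Lists of further pathway genes, cell type markers and the genes most like Atf4, Ddit3 and Hspa5 could not be reported, because 0 of the 47357 genes of the RefSeq table carry an Ensembl identifier.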

Additional observations from a re-analysis of the deposited data

Results flagged for a closer look

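Among 12 sets of CPM values (6 genes in each group), 4 held a heart far from the rest of its group by Dixon's gap test. About 0.6 would be flagged by chance if the values were normally distributed and the sets independent. The sets share hearts and the test used CPM, not log2 CPM, so 4 and 0.6 cannot be compared directly. Saline rat 37 had 143.1 CPM of Atf4, with the next saline heart at 120.2 CPM. Saline rat 10 had 27.14 CPM of Asns, with the next at 8.56 CPM. DOX high rat 32 had 14.36 CPM of Asns, with the next at 6.91 CPM, and 67.76 CPM of Xbp1, with the next at 52.8 CPM. Rat 32 is the library with the TMM factor of 1.36, whose part in these values was not tested.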

How the results depend on the processing

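Over all genes, 851 were called. The count was 1539 with DESeq2, 255 and 285 with limma on log2(TPM + 1) and log2(TPM + 0.1), 0 in rats 30 to 39 (1891 at an unadjusted p under 0.05) and 2 with the number block in the fit. It was 1766 without rats 37 and 32, and, without rat 37, 307 in rats 30 to 39 and 347 with the number block. Leaving out 1 rat gave 345 (without DOX high rat 38) to 1762 genes (without saline rat 37). Of the 6 genes, 2 were called with DESeq2 (9.55% of all genes called) and without rats 37 and 32 (13.0%). These were Atf4 and Trib3, with a log2 fold change of Trib3 of 0.92 and 1.00. With 1 rat left out 0 to 2 were called, where 2.52% to 13.0% of all genes were. None was called without a filter (854 genes, 3.62%), with either limma fit (1.87% and 2.09%) or by library totals alone (4.25%). None was called in rats 30 to 39 (0%) or with the number block fitted (0.0147%), also without rat 37 (2.20% and 2.56%).

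The log2 fold change of Atf4 in those fits without a call was 0.28 without a filter, 0.34 with both limma fits, 0.35 by library totals, 0.23 in rats 30 to 39 (0.34 without rat 37) and 0.24 with the number block (0.35 without rat 37). With 1 rat left out it was 0.25 to 0.33, that of Trib3 0.84 to 1.09, that of Asns -0.33 to 0.89 and that of Ddit3 -0.00048 to 0.13. Direction turned for Hspa5 in rats 30 to 39 (0.042, and 0.031 without rat 37) and with the number block (0.047, and 0.033), and for Asns without rats 37 and 32 (-0.38). Atf4, Trib3 and Xbp1 kept their direction in all 28 alternatives. Saline rats 34 to 37 against 5 to 10 gave 20 genes with DESeq2 in place of 0, and 0 to 1 with 1 rat left out. Of the 15 pairs, 1 was correlated in saline hearts, 4 on log2(TPM + 1) and 0 to 3 with 1 rat left out. The cause was not tested. Upper-quartile scaling and at least 10 counts in every library changed no call of the 6 genes. Counts of 13 to 123 limit Trib3. No paired analysis was possible because no animal number occurs in both groups. The alternatives for the further pathway genes were not run.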
